A study of Mus musculus with 11 samples.

Results

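The activator protein 1 (AP-1) transcription factor family was examined here as 10 genes out of the 21887 protein-coding genes of the annotation: Fos, Fosb, Fosl1, Fosl2, Jun, Junb, Jund, Batf, Atf3 and Maff. The assay was ATAC-seq, whose transposase cuts accessible DNA and tags it with sequencing adapters, and the cells were lung-resident alveolar macrophages sorted from C57BL/6 mice. Samples came from naive mice (4 samples), from mice 15 days after KP lung tumour cells were injected into the tail vein (KP day 15, 4 samples) and from mice 30 days after that injection (KP day 30, 3 samples). The labels allow for KP or KP-GFP cells in the injection and do not say which was used for which sample, nor whether mice were pooled. The tumours arose from a transplanted line, which limits the groups as a model of tumours that start in the lung. The design text speaks of triplicates, whereas the labels number 4, 4 and 3 samples. Each group has 1 deposited peak list, whose values are the authors'. Replicate errors therefore cannot be given, and no test between conditions was possible.

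A peak was assigned to a family gene when it lay inside the gene or within 1000 bp of either end, or when, among protein-coding genes up to 50 kb away, that gene had the closest end. This gave 29 of the 14731 naive peaks, 26 of the 10861 KP day 15 peaks and 10 of the 3352 KP day 30 peaks. Merged across lists they formed 33 of 16069 regions. Had the closest end been sought among all annotated genes, fewer peaks would have been assigned: 23 naive, 21 KP day 15 and 9 KP day 30 peaks. Peaks that met the first limit, 1000 bp from an end, are called boundary peaks.

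AP-1 is not a single protein but a set of dimers built from leucine-zipper proteins of the Fos, Jun, ATF, BATF and small Maf groups. Fos proteins need a partner, usually a Jun protein, to bind DNA, whereas Jun proteins can also pair with each other. Many of these genes are immediate early genes, transcribed within minutes of a stimulus. In macrophages AP-1 dimers act beside lineage factors such as PU.1 at enhancers of inflammatory and growth response genes. An ATAC-seq peak at such a gene describes the openness of its DNA and not how much of the protein is made or where it binds.

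The annotated promoters of 5 family genes that lay under peaks are shown here. The boundary counts below rest on peaks within 1000 bp of either gene end, and not on whether these stretches were called. The Junb promoter, partly under a naive and a KP day 15 peak, is not printed. Each line gives the 250 bases before a listed start, 5′ to 3′ on the strand of the gene, from RefSeq (GRCm38.p6, the mm10 build). Capitals mark the motif letters that were found.
Fos (chr12:85473640-85473889, plus strand): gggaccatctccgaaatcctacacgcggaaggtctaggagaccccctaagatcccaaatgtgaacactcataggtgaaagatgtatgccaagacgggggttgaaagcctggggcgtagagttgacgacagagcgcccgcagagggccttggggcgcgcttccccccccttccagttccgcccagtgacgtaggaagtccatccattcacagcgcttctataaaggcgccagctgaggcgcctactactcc
Fosb (chr7:19310046-19310295, minus strand): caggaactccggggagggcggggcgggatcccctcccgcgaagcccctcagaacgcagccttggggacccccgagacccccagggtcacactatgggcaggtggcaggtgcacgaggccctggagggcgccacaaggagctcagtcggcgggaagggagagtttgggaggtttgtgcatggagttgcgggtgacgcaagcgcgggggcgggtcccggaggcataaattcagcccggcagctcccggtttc
Jun (chr4:95052223-95052472, minus strand): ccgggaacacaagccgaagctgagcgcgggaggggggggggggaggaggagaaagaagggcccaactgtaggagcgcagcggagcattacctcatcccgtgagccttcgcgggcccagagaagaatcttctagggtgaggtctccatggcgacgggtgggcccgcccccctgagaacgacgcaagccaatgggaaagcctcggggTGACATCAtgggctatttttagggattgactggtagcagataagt
Atf3 (chr1:191183334-191183583, minus strand): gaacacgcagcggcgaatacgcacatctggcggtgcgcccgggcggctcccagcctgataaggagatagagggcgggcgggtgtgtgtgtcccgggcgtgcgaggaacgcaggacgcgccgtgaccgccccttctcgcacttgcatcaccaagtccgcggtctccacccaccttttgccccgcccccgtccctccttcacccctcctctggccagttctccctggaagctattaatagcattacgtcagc
Maff, the middle of 3 listed starts (chr15:79347270-79347519, plus strand): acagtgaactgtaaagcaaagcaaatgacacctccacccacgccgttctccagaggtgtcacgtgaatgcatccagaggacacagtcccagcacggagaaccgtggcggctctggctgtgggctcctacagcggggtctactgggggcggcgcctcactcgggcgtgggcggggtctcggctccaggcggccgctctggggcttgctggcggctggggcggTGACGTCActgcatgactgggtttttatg
The promoter table held a start for 9 of the 10 genes. Letters were searched on both strands in the windows of 21263 starts of protein-coding genes, of which 11 belonged to the family. The AP-1 element TGANTCA was in 0 of these 11 windows and in 6.13% of all windows. The cAMP response element TGACGTCA, bound by CREB and ATF proteins, was in 1 family window, that of Maff at positions -29 to -22 from the start, and in 1.92% of all windows. The related letters TGACATCA, added to the search after the other motifs had been fixed, stood at positions -45 to -38 before the Jun start and before the last Maff start, and in 2.86% of all windows. The CArG box, the site of serum response factor, was in 0 of the 11 windows and in 1.39% of all. None of the 3 spelled-out patterns contains another. A match is a description of the sequence and is not evidence of binding, and the lack of one concerns these windows only.

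The family genes with a boundary peak were 8 of 10 in the naive list, where 34.7% of protein-coding genes had one, 7 of 10 at KP day 15 (29.6% of all genes) and 6 of 10 at KP day 30 (12.8%). Of the 8 naive genes, 7 were kept at KP day 15 where 79.6% of all such genes were, a share near the background. By KP day 30 6 of the 8 were kept, where 36.5% of all such genes were. Fos, Jun, Junb, Jund and Atf3 had a boundary peak in every list, 5 of 8 against 35.7% over all genes. Fosl2 and Maff had one in the naive and KP day 15 lists and none at KP day 30, and Fosb had one in the naive and KP day 30 lists and none at KP day 15. Batf and Fosl1 had none in any list. Distance limit, list length and threshold matter for these counts. With a limit of 2000 bp the family genes numbered 9 in the naive list, 10 at KP day 15 and 7 at KP day 30. Batf then counted in every list and Fosl1 at KP day 15. The shares of all genes at that limit are not given here, so nothing is read from these counts. Among the strongest 3352 peaks of each list, the family genes with a boundary peak numbered 2, 3 and 6 in the naive, KP day 15 and KP day 30 lists, where 12.8%, 13.0% and 12.8% of all protein-coding genes had one. Under a stricter threshold, a −log10 q of 5 or more, Fos and Junb no longer counted at KP day 30, which left 4 genes there, where 9.34% of all genes had one.

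Over all genes, how often a gene still had a boundary peak followed the strength of its strongest naive one, so the family was also placed by strength. Genes that had one in the naive list were split into quintiles by the largest −log10 p among their boundary peaks. Kept at KP day 30 were 5.86%, 13.6%, 31.1%, 50.0% and 81.8% of all genes in quintiles 1 to 5. Jun was in quintile 5 and was kept, and Fos and Jund, both in quintile 4, were kept. In quintile 3, Atf3 and Junb were kept and Fosl2 was not. The peak that placed Junb there lay upstream, with a naive −log10 p of 17.7, and was not called at KP day 30. Junb counted as kept by a region past its 3′ end, with a naive −log10 p of 10.1. In quintile 2, Fosb was kept and Maff was not. No family gene was in the weakest quintile. The family was thus spread over the upper 4 quintiles, and its kept genes lay in all 4 of them.

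**Figure D1:**
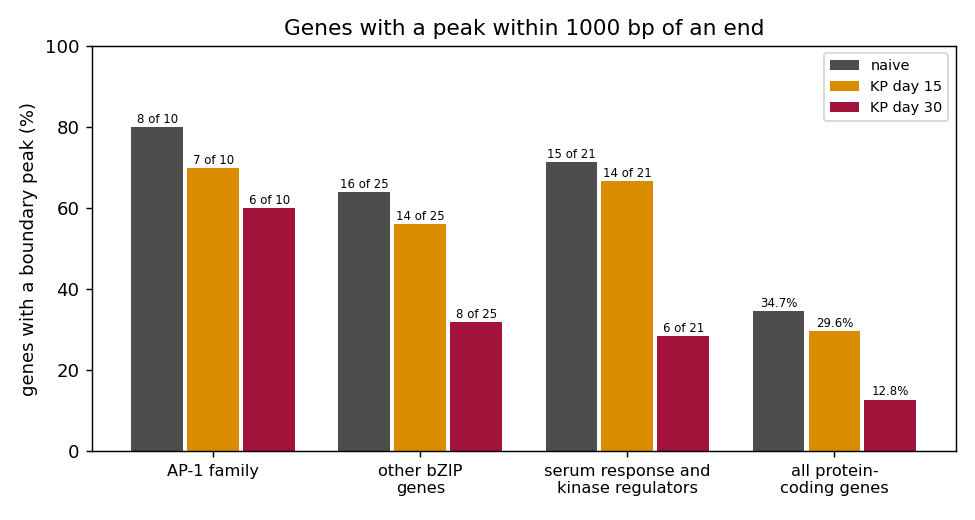
Share of genes (%) with a peak within 1000 bp of either end, for the 10 AP-1 family genes, 25 other bZIP genes, 21 serum response and kinase regulators and all protein-coding genes, in the naive, KP day 15 and KP day 30 lists. The family stood at 8, 7 and 6 of 10 genes, against 34.7%, 29.6% and 12.8% of all genes; bars carry no error because each group has 1 list.

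The lists differed in depth and in how far peaks stood above background, which bears on every value below. The genome-wide tag density that the peak values imply was 39.2 in the naive list, 93.5 at KP day 15 and 82.2 at KP day 30, as tags in 10 kb of genome, and it is used below as the measure of depth. Here a tag is a read as the peak caller counted it, and the summit pileup is the number of extended tags over the highest point of a peak. Median pileups of the lists were 16, 19 and 17 tags. A depth-scaled pileup is divided by the depth of its list relative to naive, and so scaled, shared regions were lower than naive in 99.6% of 9335 cases at KP day 15 and in 99.7% of 3163 at KP day 30. A larger share of tags outside peaks, fewer macrophages with an open site and less openness in each cell would each lower these ratios. They cannot be told apart in such bulk samples, and none was tested. Of 17 alveolar macrophage markers, 8 had a naive boundary peak, 5 had one at KP day 15 and 1, Bhlhe40, at KP day 30. The 5 included Mrc1, which had no naive one, so 4 of the 8 were kept at KP day 15. Of all protein-coding genes, 34.7%, 29.6% and 12.8% had a boundary peak in these lists. Siglecf, Marco, Fabp4, Car4 and Chil3, which help to define these cells, had none in any list. Lung epithelial or tumour cell markers had 0 of 8 in every list, T cell markers 2, 2 and 0 of 5 (Cd3d and Cd2), neutrophil markers 1, 1 and 1 of 6 (S100a8), and markers of monocytes and interstitial macrophages 2, 2 and 0 of 8. The part that other cells had in the values of the family was not tested.

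Among the Fos proteins, Fos is the classic immediate early gene and the usual partner of Jun. The gene is on chromosome 12 at 85473890 to 85477274 on the plus strand. The peak over its start ran over 85473779 to 85474078 in the naive list with 36 tags, over 85473708 to 85474093 at KP day 15 with 31 tags, and over 85473780 to 85473993 at KP day 30 with 18 tags. It covered 111, 182 and 110 of the 250 bases printed above. The authors' fold over local background was 6.98, 4.37 and 4.04, and the −log10 p was 21.5, 12.5 and 7.81. The summit lay at 17, 79 and -41 bp from the listed start, so the same promoter was called in every list with a summit that moved by at most 120 bp between lists. The depth-scaled KP day 15 pileup was 0.361 of the naive one, with a 95% interval of 0.216 to 0.601. For KP day 30 the value was 0.239 (0.128 to 0.431). These exact conditional binomial intervals cover counting error only.

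Fos also had the most regions of any family gene, 6, of which 5 lay away from its ends. A region upstream was in all 3 lists, with summits at -18405, -18472 and -18469 bp from the start, pileups of 30, 31 and 19 tags and folds of 9.23, 6.35 and 6.49. In every list its −log10 p, 23.3, 17.7 and 12.9, was above that of the Fos promoter. Regions downstream of the gene, with naive summits at 12166 and 24166 bp from the start, had 20 and 20 tags at KP day 15 and 26 and 15 tags in the naive list, and neither was called at KP day 30. Regions at -5045 and -36118 bp were in the KP day 15 list only, with 26 and 14 tags. Scaled to naive depth these were 10.9 and 5.87 tags. The weakest pileup of the whole naive list was 6 tags, but a call also rests on the local background. That background was 4.3 tags at the naive peak over the Fos start and is not known for the naive list at these regions. For neither region can absence from the naive list and the difference in depth be told apart. The upstream region found in all lists lies within 1000 bp of the gene model Gm38543.

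Fosb encodes a Fos relative made as full-length and truncated forms. On chromosome 7 it covers 19302696 to 19310118 on the minus strand, and it was the only family gene whose boundary peak was in the naive and KP day 30 lists and not at KP day 15. Of all genes that had one in the naive list, 0.764% showed this order. The KP day 30 peak ran over 19310287 to 19310501 with 16 tags, a fold of 5.18 and a −log10 p of 9.40. The naive peak ran over 19310254 to 19310482 with 20 tags, a fold of 5.33 and a −log10 p of 11.1. Both lay mostly upstream of the printed promoter and covered 9 (KP day 30) and 42 (naive) of its bases, with summits at -299 and -370 bp. At KP day 15 a peak with 21 tags, a fold of 3.17 and a −log10 p of 6.48 lay instead inside the gene at 19308553 to 19308855. It was 1263 bp from the gene end on the 5′ side, and with a limit of 2000 bp Fosb had a boundary peak in every list. Relative to KP day 15, Fosb was the 1 family gene of 3 without a boundary peak there that had one at KP day 30, where 0.506% of all such genes did.

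The strongest Fosb region was not at the promoter. It lay upstream at 19316304 to 19316865, in all 3 lists, with summits at -6447, -6447 and -6497 bp. Its pileups were 39, 29 and 17 tags, with −log10 p of 29.7, 17.2 and 10.1. The naive value was the highest of any peak assigned to the family, above that of the Jun promoter. Relative to naive its depth-scaled pileup was 0.312 at KP day 15 (0.186 to 0.518) and 0.208 at KP day 30 (0.110 to 0.376). Another 2 Fosb regions, inside the gene near its 3′ end and at -10139 bp, were in the naive list only, each with 22 tags.

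Fosl2 encodes Fra-2, a Fos relative that lacks the strong activation domain of Fos. Its gene covers 32136472 to 32157840 of chromosome 5 on the plus strand. The boundary peak lay upstream, over 32135548 to 32136073 at KP day 15 with 41 tags and over 32135424 to 32136125 in the naive list with 27 tags, and covered none of the 250 bases before the start. The −log10 p was 21.6 at KP day 15, the highest of any family peak in that list, and 14.4 in the naive list. Its depth-scaled pileup at KP day 15 was 0.637 of the naive one (0.383 to 1.08), the highest ratio of the 22 family regions shared by these lists, and 87.8% of all 9335 shared regions had a lower ratio. No KP day 30 peak was assigned to Fosl2. The other 4 Fosl2 regions were each in 1 list only: 3 in the naive list, with 10, 12 and 17 tags, and 1 at KP day 15 with 19 tags. The naive region with 12 tags lies within 1000 bp of the gene model Gm36665.

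Fosl1, which encodes Fra-1, lies on chromosome 19 at 5447698 to 5455938, and no peak was assigned to it. The closest peak was at KP day 15, over 5457384 to 5457755, 1446 bp past the gene with 16 tags, and it lay on an end of Ccdc85b, to which it was assigned. The closest KP day 30 and naive peaks were 54531 and 32318 bp away.

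Jun encodes the main partner of the Fos proteins. Its place is chromosome 4 at 95049036 to 95052222 on the minus strand, and the gene model Junos lies within 1000 bp of its promoter region. Jun had a single region, over its start, in all 3 lists. The peak ran over 95052022 to 95052670 in the naive list with 52 tags, over 95052044 to 95052836 at KP day 15 with 44 tags, and over 95052051 to 95052320 at KP day 30 with 25 tags. These were the highest pileups of the family in every list. Summits lay at 11, 41 and 37 bp from the start, downstream of the printed promoter, of which the peaks covered 250, 250 and 98 bases. The folds were 6.81, 5.00 and 5.00 and the −log10 p 28.5, 18.8 and 12.2. By −log10 p, 92.5% of all naive peaks were weaker. The depth-scaled pileup was 0.355 of the naive one at KP day 15 (0.232 to 0.541) and 0.229 at KP day 30 (0.136 to 0.376).

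Junb encodes a Jun protein that activates weakly and often opposes Jun. It is a short gene of 1840 bp on chromosome 8 at 84976909 to 84978748, on the minus strand, and it had 3 boundary regions, more than any other family gene. The region over the start had 39 tags at KP day 15 and 31 in the naive list, with summits at 24 and -52 bp, and was not called at KP day 30. The region upstream, with summits at -1101 bp at KP day 15 and -1114 bp in the naive list, had 31 and 38 tags there and was likewise not called at KP day 30. Its KP day 15 peak lay 1028 bp from the gene and its naive peak 930 bp, on either side of the limit. The region past the 3′ end was in every list, over 84976456 to 84976804 in the naive list, 84976282 to 84976710 at KP day 15 and 84976397 to 84976740 at KP day 30, with 27, 31 and 24 tags. Junb thus counted as kept at KP day 30 by the region past its 3′ end, which was the weakest of the 3 in the naive list, and its promoter was not called there. The depth-scaled ratio of that region at KP day 30 relative to naive, 0.424 (0.234 to 0.763), was above that of 83.7% of the 3163 shared regions.

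Jund encodes a Jun protein that is present in most resting cells. Jund covers 70697739 to 70700616 of chromosome 8 on the plus strand. Its single region lay inside the gene and not over the start, with peaks over 70698579 to 70699153, 70698437 to 70699259 and 70698584 to 70699032 in the naive, KP day 15 and KP day 30 lists. Pileups were 30, 33 and 22 tags and folds 6.60, 4.99 and 4.55. Summits at 1002, 1016 and 1000 bp from the start varied less between lists than at any other family region found in all 3, and none of the 250 bases before the start was under a peak. With a boundary limit of 500 bp Jund and Maff no longer counted.

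Batf encodes a small factor that has no activation domain of its own and pairs with Jun proteins, binding with IRF proteins at composite sites. The Batf gene, at 85686720 to 85709087 of chromosome 12 on the plus strand, begins 209446 bp past the end of Fos, with Jdp2 as the single protein-coding gene between them. Its promoter was not called in any list, and its 3 regions were all toward or past its 3′ end. The region inside the gene had summits at 18942, 18962 and 18984 bp from the start and pileups of 31, 31 and 15 tags, with −log10 p of 25.2, 18.5 and 7.92. A region past the end, with 16, 15 and 15 tags, was also in all 3 lists, with summits at 24271, 24161 and 23993 bp, a wider spread than at any other family region found in all 3 lists except the Atf3 promoter. The last region had 17 tags at KP day 15 and 19 in the naive list. Batf thus had no peak within 1000 bp of an end and yet had regions in every list. With a limit of 2000 bp it had a boundary peak in every list.

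Atf3 encodes a stress-induced factor that represses inflammatory genes in macrophages. On chromosome 1 it covers 191170296 to 191183333 on the minus strand. Its promoter was under a peak in every list, over 191183018 to 191183649 in the naive list, 191182976 to 191183718 at KP day 15 and 191183147 to 191183625 at KP day 30, each covering all 250 printed bases. Pileups were 25, 25 and 22 tags and folds 7.34, 4.59 and 5.56. The −log10 p was 17.1, 11.2 and 12.3. The summit moved, lying at -120 bp in the naive list, 252 bp at KP day 15 and 60 bp at KP day 30. Its depth-scaled pileup at KP day 30 was 0.420 of the naive one (0.226 to 0.776), a higher ratio than in 82.9% of shared regions, and relative to KP day 15 it was 1.00 (0.538 to 1.85). The other 4 Atf3 regions lay upstream, with summits between -47317 and -14755 bp. All were in the KP day 15 list with 17 to 21 tags and in the naive list with 12 to 17 tags, and none was at KP day 30. The region with its naive summit at -41585 bp lies within 1000 bp of the gene model D730003I15Rik.

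Maff encodes a small Maf protein, which has no activation domain and pairs with itself or with other leucine-zipper proteins. The gene, at 79346621 to 79359078 of chromosome 15 on the plus strand, has 3 listed starts. The first start was not under a peak in any list. The middle start was under the peak at 79347269 to 79347628 at KP day 15, with 26 tags, and at 79347292 to 79347627 in the naive list, with 20 tags, which covered 250 and 228 of its printed bases. Of the 250 bases before the last start, 217 were under a KP day 15 peak with 20 tags and 241 under a naive peak with 18 tags, and the summits of these peaks were 367 bp apart. A region farther inside the gene had 19 tags at KP day 15 and 28 in the naive list, and its depth-scaled ratio of 0.285 (0.150 to 0.528) was the lowest of the 22 family regions. A last region, near the 3′ end, was in the naive list only with 14 tags. No Maff region was called at KP day 30.

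**Figure D2:**
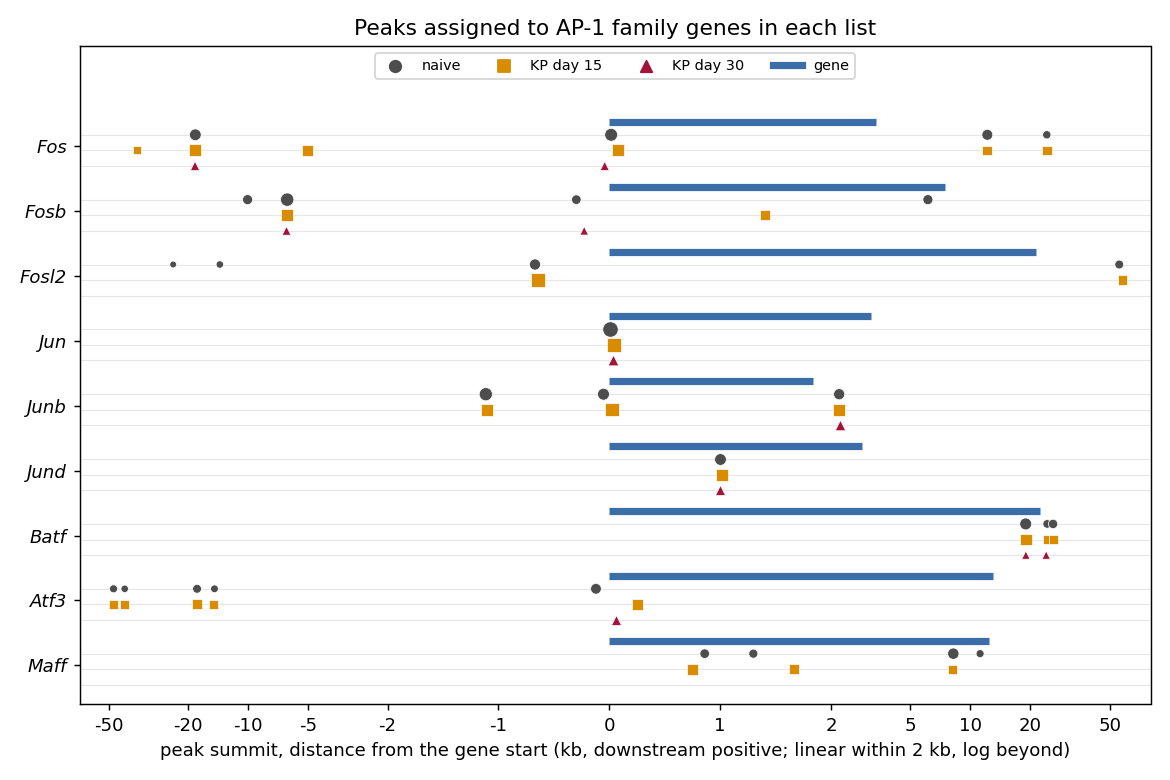
Summits of the peaks assigned to 9 AP-1 family genes, by distance in kb from the annotated start of the gene (linear within 2 kb, logarithmic beyond), in the naive, KP day 15 and KP day 30 lists. The symbol area follows the summit pileup in tags and blue bars are the genes, turned to read from start to end; Fosl1 had no assigned peak. Fos, Fosb, Jun, Junb, Jund, Batf and Atf3 had a peak inside the gene or within 1000 bp of it in every list. Fosl2 and Maff had none at KP day 30.

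Over the 33 regions, 9 were in all 3 lists, where 19.0% of all 16069 regions were, and 13 were in the naive and KP day 15 lists (39.1% of all regions). Naive-only regions numbered 6 (32.2% of all) and KP day 15-only regions 4 (8.37%). The remaining region, at the Fosb promoter, was in the naive and KP day 30 lists (0.660% of all). The family had 0 regions at KP day 30 alone and 0 in the 2 tumour lists alone, combinations that held 0.454% and 0.224% of all regions, and nothing about the family is read from these zeros.

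Of the 29 naive peaks of the family, 22 were overlapped by at least 1 bp at KP day 15, where 64.1% of all naive peaks were, and 10 at KP day 30, where 21.7% were. Within 1000 bp of gene ends 9 of 10 were overlapped at KP day 15 (75.1% of all naive boundary peaks) and 6 of 10 at KP day 30 (32.8%). Farther away the counts were 13 of 19 (54.0%) and 4 of 19 (11.4%). Away from the boundaries, the 4 peaks still overlapped at KP day 30 were those upstream of Fos, upstream of Fosb, inside Batf and past the end of Batf. In the other direction, 4 of the 26 KP day 15 peaks met no naive peak (12.8% of all KP day 15 peaks). At KP day 30, 0 of 10 met no naive peak (3.49%), and 1 of 10, at Fosb, met no KP day 15 peak (5.88%).

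The promoter windows alone, 250 bases before to 50 after a listed start, gave a similar order. Of 9 family genes in the promoter table, 6 had a naive peak over a window (34.6% of 17492 protein-coding genes), 5 a KP day 15 peak (29.6%) and 4 a KP day 30 peak (12.7%). The last were Fos, Fosb, Jun and Atf3.

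Depth-scaled pileups of the family moved with those of all regions. In the 22 family regions shared by KP day 15 and naive, all 22 were lower at KP day 15, the same as the 99.6% of all regions, and the median log2 ratio was -1.16, as it was over all regions (-1.16). The family ranged between -1.81 and -0.65. With no scaling for depth the family median was 0.09, so the scaling sets its sign. In the 10 shared by KP day 30 and naive all 10 were lower (99.7% of all regions), with a median of -1.62 against -1.75 over all regions, and the range was -2.27 to -1.16. Boundary regions of the family had medians of -1.12 at KP day 15 and -1.45 at KP day 30, where all boundary regions had -1.19 and -1.78. Its other regions had medians of -1.21 and -1.92, where all other regions had -1.12 and -1.62. In none of the 22 or the 10 regions did the 95% counting interval leave out the median of all regions. With so few tags the intervals are wide, at the Jun promoter -2.11 to -0.89 at KP day 15. The quartiles of all regions shared by KP day 15 and naive were -1.42 and -0.87. Such intervals could show only large departures from the median, so nothing is read from this count. Between the tumour lists, 7 of 9 shared family regions were lower at KP day 30 than at KP day 15, where 89.7% of all 3093 were. The exceptions were the Atf3 promoter, by a margin far inside its interval, and the region past the end of Batf, with 15 tags in each list and a ratio of 1.14 (0.518 to 2.50).

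**Figure D3:**
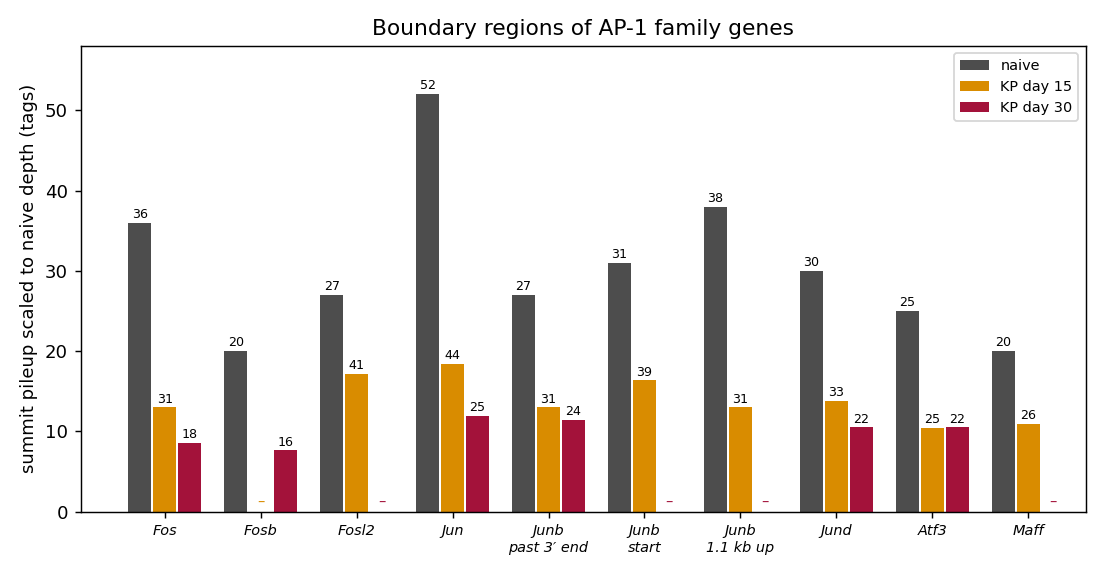
Summit pileup of the 10 boundary regions of AP-1 family genes, scaled to the naive depth (bar height, tags), with the unscaled pileup above each bar, in the naive, KP day 15 and KP day 30 lists; a dash marks a region with no peak in that list. Jun reached 52, 44 and 25 unscaled tags, and scaled values of the tumour lists were below the naive ones wherever both were called.

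**Figure D4:**
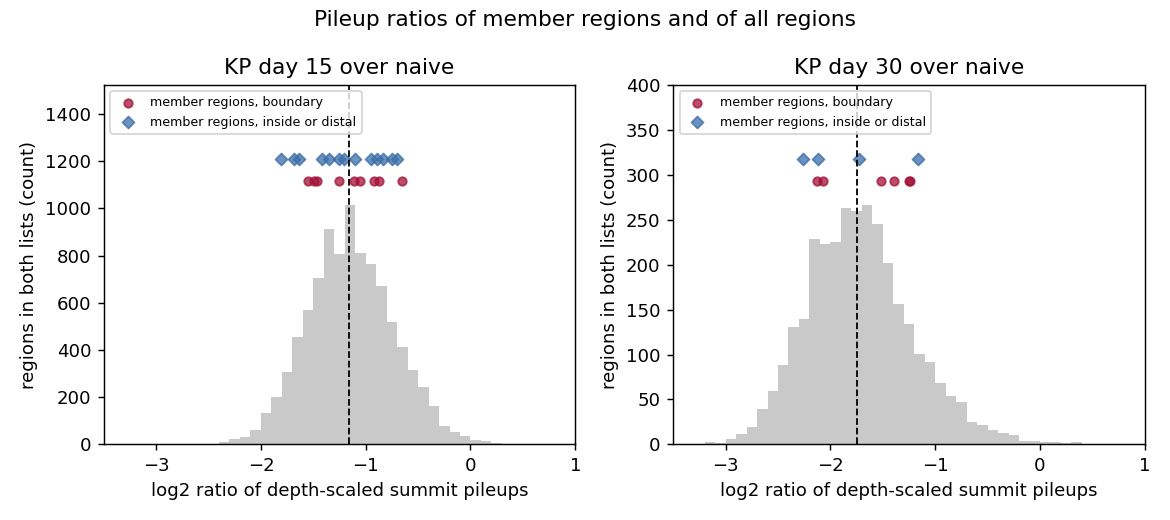
Depth-scaled summit pileups at KP day 15 over naive (left) and KP day 30 over naive (right) on the log2 scale. Grey bars count all regions found in both lists, the dashed line is their median (-1.16 and -1.75), and symbols are family regions at boundaries (circles) or inside genes and distal (diamonds), which spread across the grey distribution.

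Summit shifts between lists were close to those of all shared regions. Between KP day 15 and naive the median shift over the 22 family regions was 27.5 bp, against 36 bp over all regions, and 5 of 22 moved by over 100 bp (19.3% of all regions). Between KP day 30 and naive the median was 54 bp, and also 54 bp over all regions, with 2 of 10 over 100 bp (30.5% of all). The largest shifts were at the Atf3 promoter, 372 bp between KP day 15 and naive, and inside Maff, 367 bp.

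Tags were dense around the boundary peaks of the family genes. The local background that the peak caller used at a peak corresponds to the tags in the surrounding 10 kb, which include the peak itself and its neighbours. The 10 kb around the Jun promoter held 339 naive tags, 400 tags at KP day 15 and 210 at KP day 30, that is 8.64, 4.28 and 2.55 times the genome-wide value of each list. The 3 Junb boundary peaks of the naive list, which share most of their surroundings, had 7.75 to 8.26 times the genome-wide value, and the 1 at KP day 30 had 3.77. At Fos the multiples were 5.48, 3.38 and 2.25, at Jund 4.72, 3.11 and 2.47, and at Atf3 3.24, 2.49 and 1.91. Fosl2 had 3.09 at KP day 15 and 5.05 in the naive list, Maff 2.66 and 4.21 in these lists, and Fosb 1.39 at KP day 30 and 3.75 in the naive list. In each of these genes the multiple was lower in the tumour lists, as was the median over all boundary peaks.

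All 10 naive boundary peaks of the family were above the median multiple of naive boundary peaks, 1.91. So were all 8 at KP day 15, where the median was 1.42, and all 6 at KP day 30, where it was 1.31. A multiple over 5 was found for 6 of the 10 naive peaks, where 1.77% of 7052 naive boundary peaks had one. It was found for 1 of 8 at KP day 15 (0.0516% of 5813) and for 0 of 6 at KP day 30 (0.0418% of 2394). The 6 naive peaks belonged to 4 genes, Fos, Fosl2, Jun and Junb. Of all assigned peaks, 24 of 29 naive, 22 of 26 KP day 15 and 8 of 10 KP day 30 peaks exceeded the median multiple of their whole list. These medians were 1.76, 1.38 and 1.33. The lowest multiples of the family, 1.22, 1.13 and 1.26, were at peaks away from the boundaries. No test of the family against other genes was made, and the peaks of 1 gene share their window. Because the authors' fold is taken over this local value, it was low for the pileups reached: the 3 naive Junb peaks had folds of 3.95, 4.28 and 5.31, below the naive median of 6.80, with 27, 31 and 38 tags, above the naive median of 16. Without the peaks over 5 times the genome-wide value, the family had 4 naive boundary genes in place of 8, namely Fosb, Jund, Atf3 and Maff, where 34.2% of all genes had one.

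**Figure D5:**
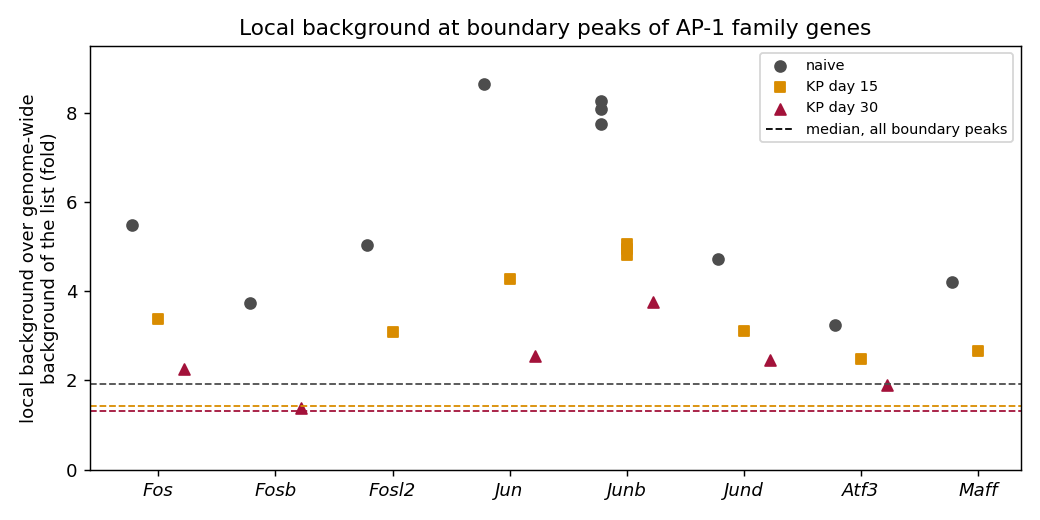
Local background at each boundary peak of 8 AP-1 family genes, as a multiple of the genome-wide background of its list, in the naive, KP day 15 and KP day 30 lists. Dashed lines are the medians over all boundary peaks of the same list (1.91, 1.42 and 1.31); every family peak lies above the line of its list, Jun and Junb farthest in the naive list.

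Other bZIP genes, which encode possible partners or competitors of AP-1, were described for comparison. Of 25, 16 had a naive boundary peak, 14 had one at KP day 15 and 8 at KP day 30. Over all protein-coding genes the shares were 34.7%, 29.6% and 12.8%. Thus 8 of the 16 were kept at KP day 30, where 36.5% of all genes with a naive one were. Genes with a peak in every list included Atf2, Atf4, the main factor of the integrated stress response, Atf7, Creb3, Crem and Nfe2l1. Atf5, Atf6b, Creb1, Maf and Mafa had one in the naive and KP day 15 lists and not at KP day 30. Jdp2, a repressor of AP-1 that neighbours Fos and Batf, had one in the naive list only, with 10 tags.

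Of 21 regulators of AP-1 genes, the serum response factor group and the MAP kinases that act on Fos and Jun, 15 had a naive boundary peak, 14 had one at KP day 15 and 6 at KP day 30. The shares over all protein-coding genes were 34.7%, 29.6% and 12.8%. Those in every list were Mapk9, which encodes the Jun kinase JNK2, the MAP kinase kinase genes Map2k1, Map2k2 and Map2k7, the serum response cofactor gene Mrtfa and the kinase gene Rps6ka5. Elk1, Elk4, Mapk7, Mapk8, which encodes JNK1, and Mapk14, which encodes p38 alpha, had one in the naive and KP day 15 lists and not at KP day 30. The counts kept at KP day 30 were 6 of 8 in the AP-1 family, 8 of 16 in the other bZIP genes and 6 of 15 in the regulators; whether these differ was not tested. Of genes with a KP day 15 boundary peak, 5 of the 7 in the AP-1 family were kept at KP day 30, where 42.1% of all such genes were.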

How the data were processed

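The submitters' processing notes name the aligner Bowtie2 2.3.4.1, the peak caller MACS2 2.1.1 and the mm10 build. Settings, read filters, pooling and any shift for the transposase are not given in the sources used here. All 3 deposited lists have no headers. From their layout and values, the authors' columns hold a score, a fold over local background (a ratio), −log10 p, −log10 q and the summit. Score, fold and p describe peaks within their own list, and the pileups compared between lists were derived from fold and p.

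The summit pileup and local background were recovered from the fold, read as pileup plus 1 over background plus 1, and from the p, read as a Poisson tail. Every peak had a whole-number pileup within 0.001 of its −log10 p. Backgrounds fell in steps of 0.02, which correspond to tags of 200 bp in 10 kb, or on a value shared within the list, taken as the genome-wide one. In the naive list 49 peaks, none assigned to the family, lay below it. Recovery was tested on simulated data.

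Gene ends came from RefSeq (GRCm38.p6), starts and strands from its promoter table. Exons and introns were not analysed here. Overlap meant 1 bp. The members and lists were chosen with earlier results of these data known. All 10 members were named, and of each related list up to 6 genes with a change and up to 6 without; 1 gene that this rule names is not reported here. The symbols Mkl1 and Trac, as written in the lists, had no match in the annotation. Python 3.11.15, scipy 1.17.1 and pandas 2.3.3 were used. Alternatives were other distances, thresholds, list lengths, overlaps and scalings.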

Additional observations from a re-analysis of the deposited data

How the results depend on the processing

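No paired analysis was possible because each group has 1 list, in which sample numbers do not appear. Leaving out a sample was not possible for the same reason. Of 89 recomputed counts and medians, 72 stayed within 1.5 times the reported count or within counting error, and 17 did not.

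With the strongest 3352 peaks of each list, family genes with a boundary peak were 2 (Fos and Jun) in the naive list, 3 (Fosl2, Jun and Jund) at KP day 15 and 6 at KP day 30, so their order was the reverse of that in the full lists. Over all protein-coding genes the shares in this setting were 12.8%, 13.0% and 12.8%. Assigned peaks were then 6 at KP day 15 and 6 in the naive list, naive peaks kept were 4 at KP day 15 and 5 at KP day 30, other bZIP genes 7 in the naive list, and regulators 4 at KP day 15 and 7 in the naive list. This setting removes peaks from the longer lists only. At −log10 q of 5 or more, KP day 30 had 6 assigned peaks, 6 naive peaks kept and 5 other bZIP genes, and boundary peaks at Fosb, Jun, Jund and Atf3. In this setting 9.34% of all protein-coding genes had a KP day 30 boundary peak. For the assigned and kept peaks in this setting and the one before it, shares over all peaks are not given here. Nothing is read from those peak counts. Without peaks of high local background the naive list had 4 family genes, where 34.2% of all protein-coding genes had a boundary peak. At KP day 15 and KP day 30 the family counts stayed at 7 and 6, above the naive count. The shares of all genes for these lists in this setting are not given here.

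Relative to the median of all shared regions, the median log2 pileup ratio over naive was -0.000705 at KP day 15 and 0.12 at KP day 30. With no scaling for depth it was 0.0924 and -0.55. The size of this ratio thus depends on the scaling, and so does its sign: against the reported medians it turned positive with no scaling at KP day 15 and relative to all shared regions at KP day 30. The low pileups, 10 to 52 tags over all family peaks, limit the precision of each ratio.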

Other observations

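Just outside the 50 kb limit, the Jun gene had a distal region on chromosome 4, past the gene end on the promoter side. It was called at KP day 15 at 95105997 to 95106368 with a fold of 7.31 and 24 tags, and in the naive list at 95105970 to 95106368, 53748 bp from the gene, with a fold of 11.5 and 29 tags. The naive fold was higher than that of any peak assigned to the family. The region was not called at KP day 30. A KP day 15 peak 55319 bp past Fos, with 12 tags, would also be added by a limit of 100 kb.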
